A study of Mus musculus with 7 samples.

Results

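The miRNAs described here lie on mouse chromosome X inside an intron of Clcn5, the gene of the chloride and proton exchanger ClC-5 of endosomes. The cluster was taken by name as mmu-miR-532-5p, mmu-miR-532-3p, mmu-miR-188-5p, mmu-miR-362-5p, mmu-miR-362-3p, mmu-miR-500-3p, mmu-miR-501-5p, mmu-miR-501-3p and mmu-miR-660-5p; the mouse prefix mmu is left out below. Of the 9 arms named, 8 had a row among the 1914 mouse miRNA rows, and they come from 5 hairpins; miR-660-5p was not analysed here. Adult C57BL/6J mice had given tissue of the brain's lateral ventricles with their choroid plexus for small RNA sequencing, in 4 libraries from animals labelled TAp73 knockout and 3 labelled wild type. TAp73, the p73 isoform class with a transactivation domain, regulates transcription, and by its title the series concerns how multiciliated brain cells form. The knockout is described in the labels only by its name, and they give neither the sex of the animals nor an exact age, although the cluster is X-linked.

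A miRNA hairpin is cut from a longer transcript by Drosha and then by Dicer, which leaves a short duplex of a 5p and a 3p arm. Usually one arm is loaded into an Argonaute protein and kept, and its seed, bases 2 to 8, directs it to messenger RNAs. Hairpins within an intron on the sense strand of a host gene can be made from the host transcript, so neighbours in one intron may be made together, while their mature levels also depend on processing and decay. Within this family of hairpins, miR-188-5p and miR-501-3p have been studied in rodent hippocampal neurons as regulators of synaptic proteins.

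Clcn5 occupies chrX:7153810-7319358 on the minus strand (build GRCm38, GENCODE release M21), and the 5 hairpins fall within 10.8 kb of its sense strand. In the direction of transcription Mir532 comes first at chrX:7248402-7248497, followed by Mir188 at chrX:7247989-7248056, Mir362 at chrX:7241982-7242046, Mir501 at chrX:7241243-7241351 and Mir500 at chrX:7237683-7237774. All lie in a single intron of 103.6 kb, chrX:7213011-7316658. Of the 5 annotated Clcn5 transcripts, 3 span this intron and 2 start downstream of the cluster and do not contain it. The first hairpin lies 70.9 kb from the start of the gene.

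The mature arms below are shown because the read counts split unevenly between near-identical sequences. They are from RefSeq on build GRCm38.p6, where 7 of the 8 arms and the opposite arms of miR-188 and miR-500 were matched, and the capitals mark the seed.
miR-501-3p: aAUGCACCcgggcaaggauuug
miR-500-3p: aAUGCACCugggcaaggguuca
miR-362-3p: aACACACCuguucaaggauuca
miR-362-5p: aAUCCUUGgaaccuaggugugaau
miR-500-5p: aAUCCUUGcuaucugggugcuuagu
miR-501-5p: aAUCCUUUgucccugggugaaa
miR-532-3p: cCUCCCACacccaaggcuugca
miR-188-3p: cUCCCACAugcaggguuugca
miR-188-5p: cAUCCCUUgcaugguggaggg

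miR-501-3p and miR-500-3p share the seed AUGCACC and are identical at 18 of 22 bases. Counted from the 5′ end, with miR-500-3p given first, they differ by U9C, G18A, C21U and A22G. The seed AUCCUUG is shared by miR-362-5p and miR-500-5p, and miR-501-5p differs from that seed by its last base only. The seed of miR-188-3p, UCCCACA, occurs in miR-532-3p at bases 3 to 9, 1 base further along than in miR-188-3p itself. Outside the cluster, the seed ACACACC of miR-362-3p was also that of miR-329-3p, a miRNA of the imprinted Dlk1-Dio3 region on chromosome 12.
miR-329-3p: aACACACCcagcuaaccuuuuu

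The sources used here do not say how reads that could come from either of 2 such arms were assigned. The separate values of miR-500-3p and miR-501-3p are for that reason less certain than their sum. The precursors of these arms and of miR-362 are given to show both arms in place, and capitals mark the mature arms.
Mir501: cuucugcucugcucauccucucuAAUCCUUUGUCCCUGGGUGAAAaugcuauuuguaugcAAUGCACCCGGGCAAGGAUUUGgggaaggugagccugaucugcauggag
Mir500: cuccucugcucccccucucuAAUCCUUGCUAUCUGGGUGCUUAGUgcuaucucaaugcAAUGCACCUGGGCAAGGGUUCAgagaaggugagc
Mir362: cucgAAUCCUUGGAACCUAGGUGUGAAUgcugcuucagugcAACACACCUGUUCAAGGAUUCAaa

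The libraries held between 969106 and 9343921 assigned reads, and rows of mouse miRNAs took 98.6% to 99.0% of them. Knockout replicate 3 was the shallowest, so that 1 read there equals 1.05 counts per 1000000 mouse miRNA reads (CPM), against 0.108 CPM in knockout replicate 1. Trp73 itself was not measured. The labels were set beside 6 arms from miR-34b, miR-34c, miR-449a and miR-449c, which are abundant in multiciliated cells. edgeR's quasi-likelihood test called all 6, and they were its only calls among 534 tested miRNAs (1.12%). Knockouts had less of both miR-34b arms and both miR-34c arms, and more of miR-449a-5p and miR-449c-5p, with no overlap between the groups. Among all tested miRNAs, every knockout lay below every wild type in 8.24%, and above in 3.56%. These 6 were listed with earlier results of these data known, so their calls are no independent check of the labels. miR-204-5p, an abundant miRNA of choroid plexus epithelium, was present in every library but varied from 2006 to 7429 CPM in knockouts and from 2009 to 11780 CPM in wild types, lowest in knockout replicate 3 and wild type replicate 2. In bulk tissue, fewer cells of a type and less RNA per cell cannot be told apart. The labels do not say that each library is a separate animal, so p-values measure the spread between libraries.

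The cluster was expressed in all 7 libraries, and 2 of its arms carried nearly all of its reads. Summed over the 8 arms it stood at 1281, 1256, 1685 and 1547 CPM in the knockouts, against 1568, 1445 and 1725 CPM in the wild types. The groups overlapped, and the 4 knockouts averaged 1442 ± 208.6 CPM (SD), the 3 wild types 1579 ± 140.5 CPM. The log2 ratio of these means was -0.13. With libraries rescaled by TMM factors, as in the edgeR fits below, this ratio was -0.05. Of these reads, miR-501-3p supplied 72.9% ± 3.99 in the 4 knockouts (SD) and 68.6% ± 1.25 in the 3 wild types. miR-532-5p supplied 23.1% ± 3.77 in the knockouts and 26.7% ± 1.66 in the wild types. The other 6 arms made up 3.763% to 4.593% in knockouts and 3.847% to 5.272% in wild types.

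miR-501-3p had the highest level of the cluster and ranked 63 by mean CPM among the 1284 mouse miRNA rows with reads. It stood at 900.6, 870.4, 1315 and 1146 CPM in the knockouts and at 1096, 973.5 and 1184 CPM in the wild types. The lowest and the highest value both belonged to knockouts, replicate 2 and replicate 3, and the wild types lay between them. The 4 knockouts averaged 1058 ± 211.2 CPM (SD) and the 3 wild types 1084 ± 105.8 CPM. The edgeR log2 fold change, knockout minus wild type, was 0.04 ± 0.16 (SE), with a 95% interval of -0.31 to 0.39 (adjusted p = 0.92). The sign was negative with library totals alone, at -0.04.

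miR-532-5p, the most read arm of the first hairpin, ranked 120. It stood at 332.0, 327.8, 305.7 and 341.2 CPM in the knockouts, against 389.6, 402.9 and 474.3 CPM in the wild types. Each knockout library lay below each wild type library. The 4 knockouts averaged 326.7 ± 15.03 CPM (SD) and the 3 wild types 422.3 ± 45.6 CPM. In the edgeR fit, which rescales the libraries with TMM factors, the log2 fold change was -0.29 ± 0.13 (SE), a ratio of 0.818 (95% interval -0.57 to -0.0064 on the log2 scale). The unadjusted p was 0.046 and the adjusted p over 534 tested miRNAs was 0.38, so the arm was not called.

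miR-500-3p was the third arm in order of level and the other one whose groups did not overlap. It stood at 9.96, 15.7, 16.8 and 15.5 CPM in the knockouts, from 92, 121, 16 and 60 reads, against 24.5, 19.0 and 20.6 CPM in the wild types, from 66, 42 and 75 reads. Knockout replicate 1 was the lowest of all and wild type replicate 1 the highest. The log2 fold change was -0.53 ± 0.24 (SE; edgeR 95% interval -1.05 to 0.0019, unadjusted p = 0.051, adjusted p = 0.39). miR-501-3p had 90.4, 55.4, 78.5 and 74.1 reads per read of miR-500-3p in the knockouts and 44.8, 51.3 and 57.6 in the wild types. For these arms of the same seed the ratio was thus higher in 3 of the 4 knockouts than in all wild types, with knockout replicate 2 inside the wild type range. Their summed level was dominated by miR-501-3p, at 1072 ± 213.0 CPM over the 4 knockouts (SD) and 1106 ± 106.9 CPM over the 3 wild types.

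**Figure D1:**
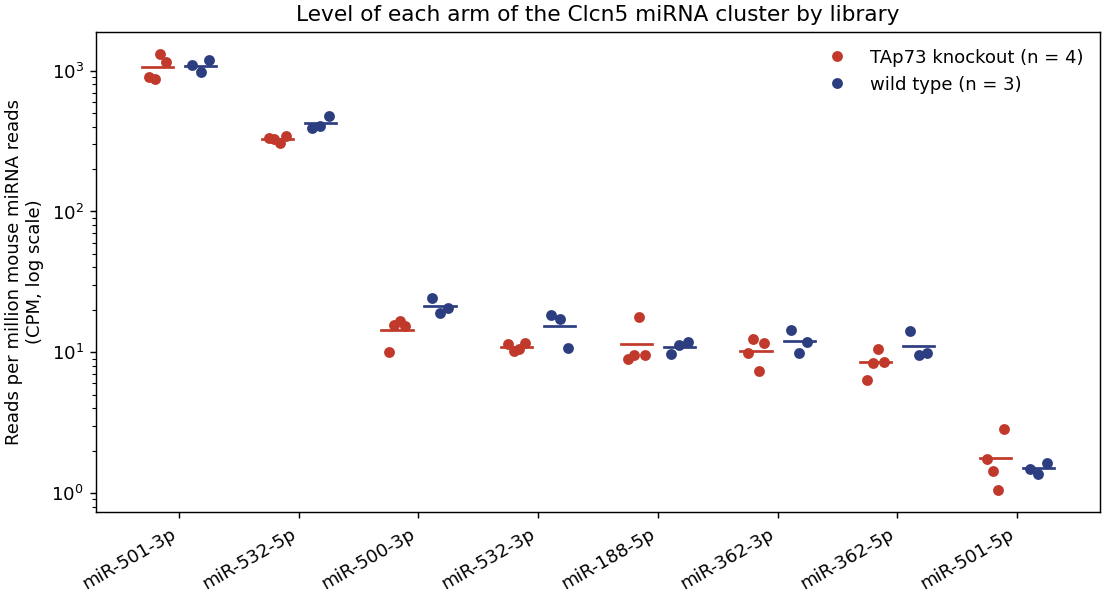
Level of each of the 8 arms in each library, in CPM on a log scale, with knockouts left of wild types; points are libraries and bars are group means. miR-501-3p lies between 870.4 and 1315 CPM and miR-532-5p between 305.7 and 474.3 CPM, the next 5 arms between 6.39 and 24.5 CPM, and miR-501-5p lowest at 1.05 to 2.84 CPM.

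miR-500-3p and the 4 arms that follow rested on few reads, 7 to 17 each in knockout replicate 3. miR-532-3p stood at 11.4, 10.1, 10.5 and 11.6 CPM in the knockouts and at 18.5, 17.2 and 10.7 CPM in the wild types. Wild types 1 and 2 were above all knockouts and wild type 3 was among them, and the log2 fold change was -0.41 ± 0.26 (SE; edgeR adjusted p = 0.54). Leaving out wild type 3 made it -0.66, and leaving out wild type 1 made it -0.25. miR-362-5p had 6.39 to 10.5 CPM in the knockouts and 9.50 to 14.1 CPM in the wild types, with a log2 fold change of -0.39 ± 0.27 (edgeR adjusted p = 0.58), and of -0.19 without wild type replicate 1. miR-362-3p had 7.33 to 12.3 CPM in the knockouts and 9.95 to 14.5 CPM in the wild types, with a log2 fold change of -0.10 ± 0.25 (edgeR adjusted p = 0.87). For both arms of miR-362 the groups overlapped, and wild type replicate 1 had the highest value.

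miR-188-5p, which represses the semaphorin receptor gene Nrp2 in rodent neurons, stood at 8.88, 9.62, 17.8 and 9.53 CPM in the knockouts and at 9.64, 11.3 and 11.8 CPM in the wild types. Knockout replicate 3 was the highest, from 17 reads, and in CPM the other 3 knockouts were just below the lowest wild type. With TMM-scaled CPM, knockout replicates 2 and 4 were above wild type replicate 1, at 9.79 and 9.76 against 9.57. The log2 fold change of miR-188-5p was 0.02 ± 0.28 (edgeR adjusted p = 0.98), and -0.15 without knockout replicate 3. miR-501-5p had 1 to 16 reads per library, or 1.05 to 2.84 CPM in the knockouts and 1.36 to 1.65 CPM in the wild types, and did not pass the filter on low counts. The 95% interval of miR-188-5p was -0.59 to 0.63 and that of miR-532-3p -0.97 to 0.15.

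Ordered by mean level over the 7 libraries, miR-501-3p at 1069 ± 162.0 CPM (SD, n = 7) and miR-532-5p at 367.6 ± 58.5 CPM did not overlap with each other or with any arm below. miR-500-3p at 17.4 ± 4.56 CPM, miR-532-3p at 12.9 ± 3.48, miR-188-5p at 11.2 ± 3.08, miR-362-3p at 11.1 ± 2.26 and miR-362-5p at 9.61 ± 2.37 CPM followed, and each of these neighbours had overlapping ranges. miR-501-5p at 1.65 ± 0.568 CPM was below all of them in every library. Between miRNAs such an order holds for reads, since arms of different sequence can enter a library with unequal efficiency. Within a genotype, miR-501-3p had a coefficient of variation of 19.96% among knockouts and 9.76% among wild types, where counting reads alone would give 1.80% and 1.86%. For miR-532-5p these values were 4.6% among knockouts and 10.8% among wild types, beside 3.5% and 2.97% from counting. For miR-362-3p they were 21.7% and 18.8%, beside 21.6% and 17.7% from counting.

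**Figure D2:**
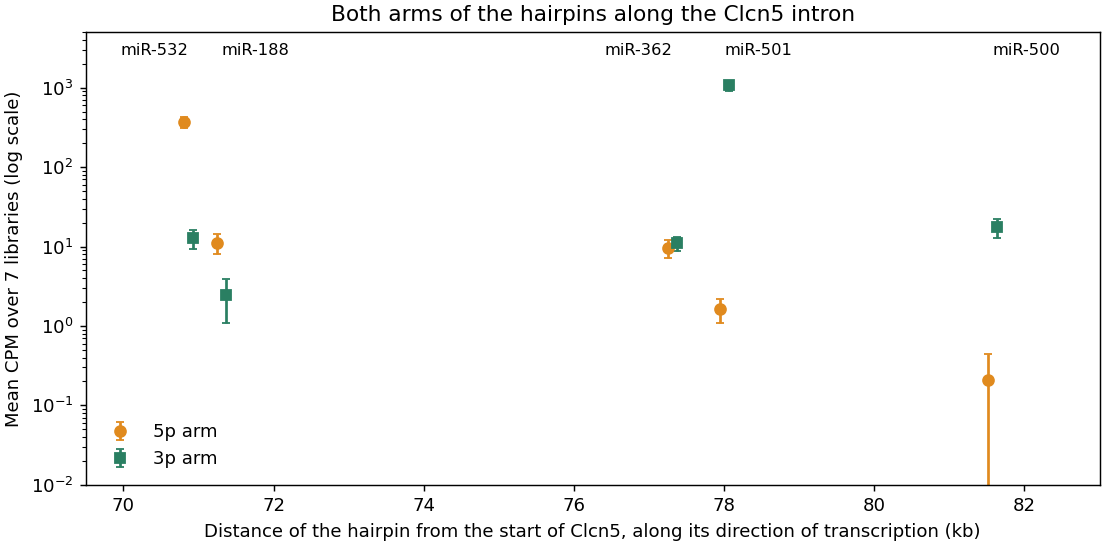
Mean CPM over the 7 libraries (log scale; bars, SD) of the 5p and 3p arm of each hairpin, placed by its distance in kb from the start of Clcn5 along transcription. The leading arms belong to miR-532, at 70.9 kb, and miR-501, at 78.0 kb. In their close neighbours, miR-188-5p and both arms of miR-362 stay near 10 CPM, and miR-188-3p is at 2.48 CPM. The lower bar of miR-500-5p runs off the axis.

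Among the 7 arms that passed the filter, 0 were called by edgeR at an adjusted p under 0.05, where 1.12% of the 534 tested miRNAs were called, and 1 had an unadjusted p under 0.05, where 12.9% of all did and 6.74% did with lower values in knockouts. DESeq2 also called 0 of the 7, against 2.62% of all 534, a share that includes 94 rows without an adjusted p, which could not be called. In DESeq2 1 of the 7 had an unadjusted p under 0.05. The log2 fold change was negative in 5 of the 7, with a median of -0.29, against 52.8% and a median of -0.02 over all tested. The 2 positive values, of miR-501-3p and miR-188-5p, were negative with library totals alone, upper-quartile scaling or limma-voom. All knockouts lay below all wild types in 2 of the 7 arms, miR-532-5p and miR-500-3p, where this held for 8.24% of tested miRNAs, and the same 2 arms were separated with TMM-scaled CPM. The opposite separation held for 0 of the 7, and for 3.56% of all. Of the leading pair, miR-532-5p was separated by genotype and miR-501-3p was not; the difference between their changes was not tested.

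**Figure D3:**
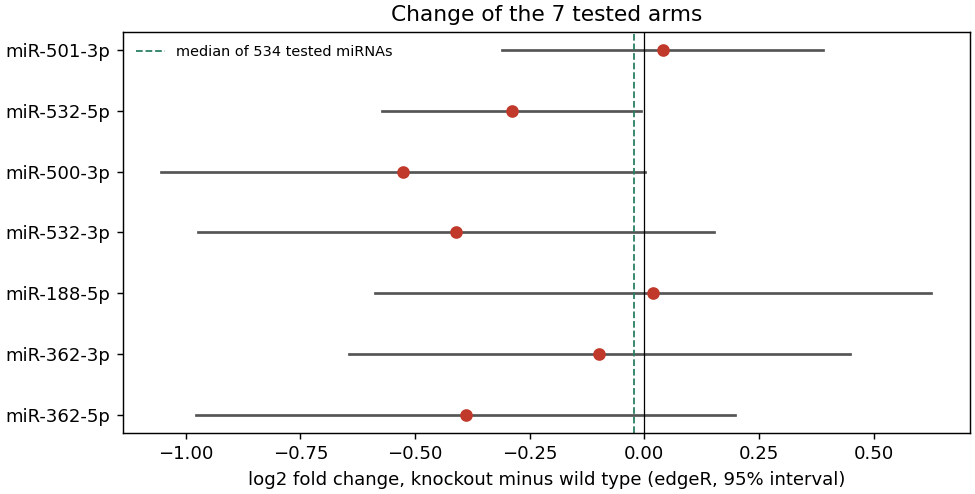
Log2 fold change, knockout minus wild type, of the 7 tested arms with its 95% interval from edgeR; the dashed line is the median of the 534 tested miRNAs. The interval of miR-532-5p ends just below 0 and that of miR-500-3p just above it, and the other 5 cross 0.

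The output of each hairpin was taken as the sum of both arms, and the fit was repeated on 394 hairpins. This fit has its own TMM factors. The median log2 fold change was 0.02 over the hairpins and -0.02 over the miRNA rows. Values of arms and hairpins are therefore not on exactly the same scale, and a hairpin can lie outside the range of its arms. The miR-532 hairpin gave 343.3, 337.9, 316.2 and 352.8 CPM in the knockouts, against 408.1, 420.1 and 485.0 CPM in the wild types, without overlap (edgeR log2 fold change -0.25 ± 0.13, adjusted p = 0.38). The miR-500 hairpin gave 10.1, 16.1, 16.8 and 16.0 CPM in the knockouts, against 24.5, 19.4 and 20.6 CPM in the wild types, also without overlap (-0.46 ± 0.24, adjusted p = 0.41). Such a separation, knockouts below, held for 9.14% of the hairpins. The miR-501 hairpin differed by 0.08 ± 0.15, the miR-362 hairpin by -0.18 ± 0.22 and the miR-188 hairpin by 0.22 ± 0.27, with adjusted p of 0.85, 0.74 and 0.74 in edgeR. The miR-362 value was -0.03 without wild type replicate 1, and the miR-188 value 0.04 without knockout replicate 3. The sign was negative in 3 of the 5, against 45.7% of all hairpins. For miR-501 the sign was negative with library totals alone, at -0.04. None of the 5 was called, against 1.02% of all hairpins, and none had an unadjusted p under 0.05 in edgeR with TMM, against 14% of all. DESeq2 called none of the 5 either, with 1 at an unadjusted p under 0.05, the miR-532 hairpin. With library totals alone in edgeR, 2 of the 5 had an unadjusted p under 0.05, the miR-532 and miR-500 hairpins. For the miR-532 hairpin the unadjusted p in edgeR was 0.042 with RLE scaling (adjusted p = 0.35). It was 0.039 without knockout replicate 1 (adjusted p = 0.42).

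The hairpins differed in which arm held most of their reads. Such shares hold for reads, since arms of different sequence can enter a library with unequal efficiency. The miR-501 hairpin gave its 3p arm in 99.8% of 30197 reads pooled over the libraries (exact Clopper-Pearson 95% interval 99.8% to 99.9%). The miR-500 hairpin, its close relative, gave the 3p arm in 98.5% of 479 reads (97.0% to 99.4%). miR-500-5p had 7 reads in all and 0 in knockout replicate 3 and wild type replicates 1 and 3, where a count of 0 allows up to 3.14, 1.11 and 0.823 CPM. The miR-532 hairpin gave its 5p arm in 96.8% of 11241 reads (96.4% to 97.1%), so the leading arms of the cluster come from opposite sides of their hairpins. These intervals cover counting error only, since the tables count reads and not molecules.

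In the miR-362 hairpin the arms were nearly balanced, with 43.4% of 604 reads on the 5p arm (95% interval 39.4% to 47.4%). By library the 5p arm held 39.3%, 40.6%, 58.8% and 42.3% in the knockouts and 49.4%, 48.8% and 45.6% in the wild types, where the value of knockout replicate 3 rests on 17 reads. In the miR-188 hairpin the 5p arm held 82.0%, 76.3%, 77.3% and 80.4% in the knockouts, against 86.7%, 92.6% and 82.7% in the wild types. Every knockout was below every wild type here. How many of all hairpins separate in this way was not computed, and wild type replicate 2 had 2 reads on the 3p arm. The shares pooled by group had overlapping counting intervals. They were 79.2% of 265 reads in knockouts (95% interval 73.9% to 84.0%) and 86.2% of 109 reads in wild types (78.3% to 92.1%). The miR-532 5p share was 96.7% to 97.0% in knockouts and 95.5% to 97.8% in wild types, so the knockouts lay within the wild type range.

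**Figure D4:**
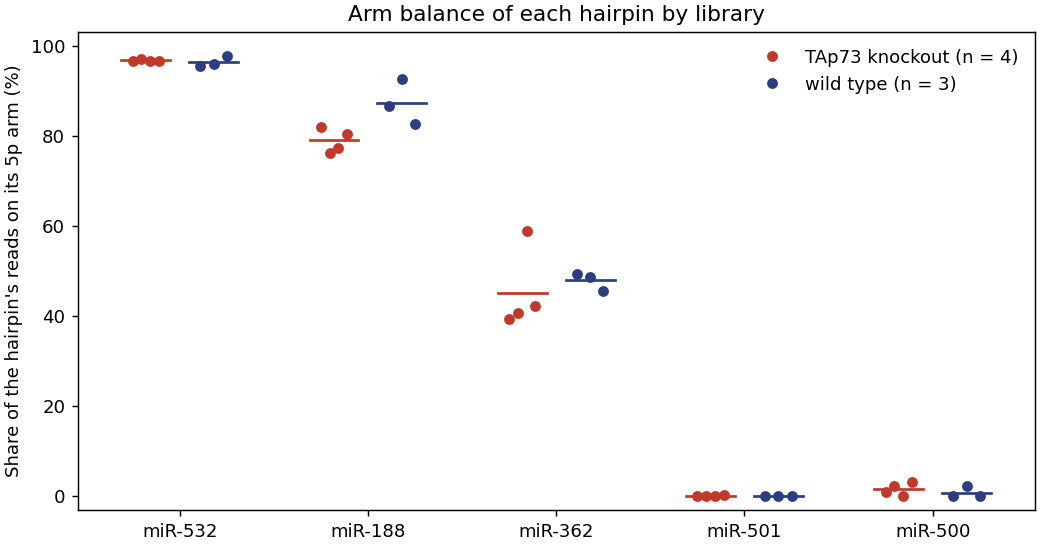
Share of each hairpin's reads on its 5p arm by library, in percent, with knockouts left of wild types; points are libraries and bars are group means. miR-532 stays above 95%, miR-501 and miR-500 stay below 4%, and miR-362 lies between 39.3% and 58.8%.

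Covariation of the hairpins across the 7 libraries did not pass a test. Correlations of log2 CPM (with 1 CPM added) were computed for the 10 pairs of hairpins, and 0 passed at a Benjamini-Hochberg adjusted p under 0.05, with 1 pair at an unadjusted p under 0.05. That pair was miR-362 and miR-500 (Pearson r = 0.84, exact permutation p = 0.036, adjusted p = 0.30; Spearman rho = 0.71, p = 0.088, adjusted p = 0.67; n = 7). Without knockout 1 and wild type 1, the libraries farthest from the median of miR-362, r was 0.34, so this relation rests on them, though leaving out the extremes also narrows the range. Its r was 0.87 without knockout replicate 3 and 0.79 with TMM-scaled CPM. The 2 abundant hairpins, miR-532 and miR-501, had r = 0.11 and rho = 0.11 (exact permutation p = 0.82 and 0.84, adjusted p = 0.82 and 0.91), and r = -0.09 without wild types 2 and 3. With TMM-scaled CPM this r was -0.16, and without knockout replicate 3 it was 0.64 (exact permutation p = 0.15, adjusted p = 0.47). All values of a library share its denominator, and 4 or 3 libraries are too few for a correlation inside a single genotype. With values centred on their genotype mean, a check chosen after seeing the data, r was 0.72 for miR-362 and miR-500 (exact permutation within genotype, 144 orders, p = 0.042, adjusted p = 0.42) and -0.01 for miR-532 and miR-501 (exact permutation p = 0.97, adjusted p = 0.97). The pair of miR-532 and miR-500, both separated by genotype, had r = 0.61 over the libraries (exact permutation p = 0.14, adjusted p = 0.47) and r = -0.30 after centring (exact permutation p = 0.44, adjusted p = 0.86).

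The libraries that set these values apart can be named. In knockout replicate 3, miR-501-3p and miR-188-5p were at their highest while miR-532-5p was at its lowest, so that miR-501-3p had 4.30 reads per read of miR-532-5p. The ratio was 2.71, 2.66 and 3.36 in knockout replicates 1, 2 and 4 and 2.81, 2.42 and 2.50 in the wild types. Knockout replicate 3 was also lowest among knockouts in the choroid plexus list of 3 miRNAs, at 2016 CPM, beside 2015 CPM in wild type replicate 2. Nearly all of that sum was miR-204-5p, at 2006 CPM in knockout replicate 3. In this library miR-211-5p, also on the list, went the other way and was highest, at 7.33 CPM. It had 2.47 to 5.15 CPM in the other knockouts and 3.34 to 6.86 CPM in the wild types. Knockout replicate 3 was highest in the neuronal list of 6 miRNAs, at 39530 CPM. The other knockouts had 35250 to 36780 CPM there and the wild types 21180 to 35500 CPM. Wild type replicate 3, highest in miR-532-5p, was highest in the choroid plexus list, at 11790 CPM, and lowest in the neuronal list. The order was not the same throughout. Wild type replicate 2, at 2015 CPM in the choroid plexus list, had 402.9 CPM of miR-532-5p, and wild type replicate 1, at 8320 CPM, had 389.6 CPM. Knockout replicate 1, at 7435 CPM in that list, had 332.0 CPM of miR-532-5p, and knockout replicate 4, at 5000 CPM, had 341.2 CPM. With the mean log2 CPM of miR-204-5p and miR-211-5p as a covariate, the log2 fold change of miR-532-5p was -0.26 (edgeR adjusted p = 0.47). That covariate averages 2 miRNAs that differed in direction in knockout replicate 3, so it is no measure of choroid plexus content. The part of cell types in these levels was not tested.

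**Figure D5:**
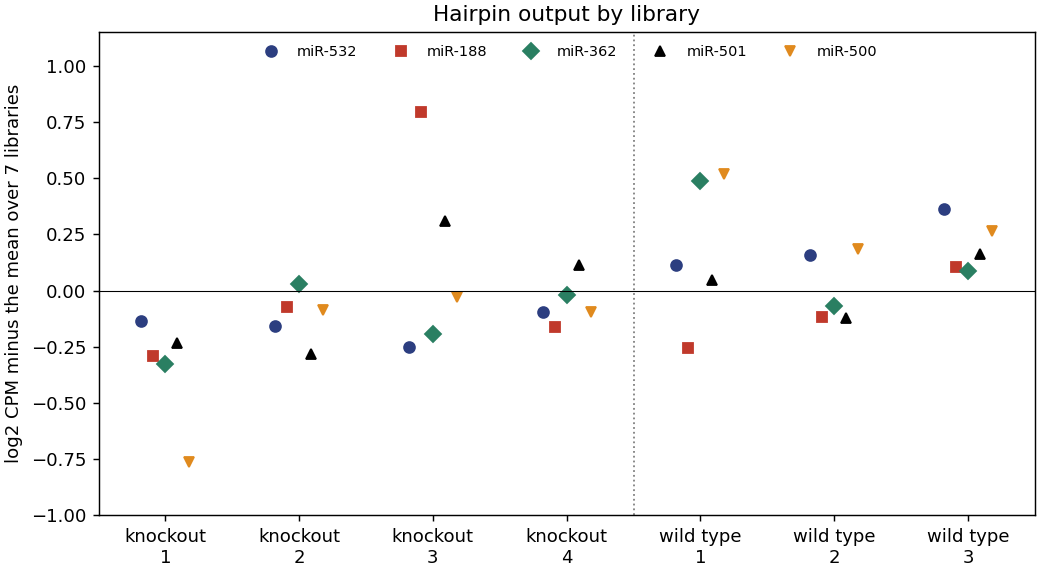
Output of each hairpin by library, as log2 CPM minus its mean over the 7 libraries, with knockouts left of the dotted line and wild types right of it. miR-532 and miR-500 lie below 0 in each knockout and above 0 in each wild type, miR-188 and miR-501 peak in knockout 3, and the symbols do not keep one order across libraries.

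Blood and vessel lists were read in the same libraries. The list of 5 leukocyte and microglia miRNAs summed to 590.4 to 790.5 CPM in knockouts and 534.5 to 599.4 CPM in wild types, and the list of 3 erythroid miRNAs to 138.2 to 261.8 CPM and 139.3 to 195.0 CPM, both highest in knockout replicate 3. The 2 endothelial miRNAs, one of them at 0 reads in all libraries, summed to 785.3 to 984.8 CPM in knockouts and 880.8 to 980.8 CPM in wild types. The 2 oligodendrocyte miRNAs summed to 356.0 to 517.4 CPM in knockouts and 387.0 to 680.3 CPM in wild types. For smooth muscle and fibroblasts, 3 of the 4 listed miRNAs had a row of their own, and they summed to 15480 to 20290 CPM in knockouts and 15810 to 24340 CPM in wild types. The multiciliated list of 6 miRNAs summed to 385.3 to 760.5 CPM in knockouts and 1291 to 3675 CPM in wild types, highest in wild type replicate 3. How far these cells contribute to the level of the cluster was not tested.

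The miRNAs most like the summed cluster across the 7 libraries, among 247 tested miRNAs of at least 50 CPM, were miR-346-5p (Pearson r = 0.88), miR-10a-5p (0.86), the joint row of miR-199a-3p and miR-199b-3p (0.85), miR-183-5p (0.83) and miR-667-3p (0.80). These r values are a description over 7 libraries that share their denominators, and 5 of 247 had to be highest. By library, miR-501-3p made up 67.4% to 78.1% of the summed cluster, so this likeness need not hold for the other arms. miR-346-5p stood at 283.9 ± 34.1 CPM over the 4 knockouts (SD) and 301.0 ± 5.08 CPM over the 3 wild types. The 4 with a row of their own lie on chromosomes 14, 11, 6 and 12, and none on chromosome X.

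Of the other miRNAs whose mature sequence lies only on chromosome X, 38 were tested. Their log2 fold change was negative in 23 (60.5%), with a median of -0.07, and 0 were called by edgeR; 5 had an unadjusted p under 0.05, each lower in knockouts. These 5 are 13.2% of the 38, where 12.9% of all 534 tested miRNAs had such a p, 6.74% with lower values in knockouts. Over all tested, 52.8% had a negative value, with a median of -0.02 and 6 called. miR-329-3p, which has the seed of miR-362-3p, stood at 28.9 ± 7.99 CPM over the 4 knockouts (SD) and 35.8 ± 4.65 CPM over the 3 wild types, with a log2 fold change of -0.28 ± 0.24 (edgeR adjusted p = 0.67). Its level was above that of miR-362-3p in both groups, which averaged 10.3 ± 2.23 CPM over the 4 knockouts and 12.1 ± 2.27 CPM over the 3 wild types. miR-7061-3p, which shares the seed AUCCCUU of miR-188-5p, had 0 reads in all 7 libraries.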

How the data were processed

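A phenol and chloroform extraction gave total RNA, from which small RNA was prepared with TruSeq chemistry from Illumina, per the labels' protocols. The authors deposited 1 table per library with unnormalized whole-number counts for each small RNA name. Named with no role, per the submitters' processing notes, are mm10, bcl2fastq 2.17.1.14 and DESeq2; aligner, counter and small RNA annotation: not given in the sources used here. Closing lines for unassigned reads hold 0 reads in each table. CPM here are counts per 1000000 reads of the 1914 rows whose name starts with mmu-. No row of another species with these miRNA names held reads.

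Groups follow the genotype label. The members and lists were chosen with earlier results of these data known. No 2 libraries agreed within sampling noise (chi-square per degree of freedom 46.6 to 271.2 for miRNAs whose reads in a pair reached 20). The test, over all mouse rows, was edgeR 4.0.16 under R 4.3.3 (TMM, filterByExpr with a minimum count of 10 and total of 15, robust quasi-likelihood test, Benjamini-Hochberg threshold 0.05), and again after summing the arms of each hairpin name. Intervals are at 95%. The script was tested on simulated data. Alternatives were DESeq2 1.42.0, limma-voom (limma 3.58.1), other scalings and filters, no robust estimation, rows of all species summed by name, a miR-204 and miR-211 covariate, and left-out libraries. Correlation p-values, two-sided, came from all 5040 orders of the 7 libraries (numpy 2.4.6), adjusted with scipy 1.17.1. Named are the 8 arms with a row, the other arms of their hairpins, tested or listed miRNAs that share a seed, the 5 most alike miRNAs, and marker and X-linked lists as lists. A covariation of 6 hairpins had been planned, and 5 were available. Coordinates are on GRCm38, of which mm10 is another name, and sequences are from RefSeq on GRCm38.p6.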

Additional observations from a re-analysis of the deposited data

Results flagged for a closer look

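Among the 4 knockout libraries, 22 quantities of the cluster were searched for a library set apart, and 5 had one. The nominal rate of the rule, about 1 in 20, is for independent quantities and libraries of equal noise. These quantities share reads and knockout replicate 3 was the shallowest, so 5 of 22 cannot be set against that rate. The 3 wild types were too few for this. miR-188-5p was 17.8 CPM in knockout replicate 3, while the remaining knockouts had 8.88 to 9.62 CPM, so the distance to the nearest was 0.918 of their whole range, and the miR-188 hairpin sum was 23.0 CPM there and 10.8 to 12.6 CPM in the others (0.855). In the same library the 5p share of miR-362 was 58.8%, from 17 reads with an exact 95% interval of 32.9% to 81.6%, against 39.3% to 42.3% in the others (0.847). The miR-500 hairpin sum was 10.1 CPM in knockout replicate 1, where the remaining knockouts had 16.0 to 16.8 CPM (0.884). The 5p share of miR-532 was 97.0% in knockout replicate 2 and 96.7% in each of the others (0.92), a difference within its interval of 96.3% to 97.6%.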

How the results depend on the processing

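No paired analysis was possible because the labels number no replicates: the numbers used here follow the order of deposit, only name the libraries and pair none. Of the 200 fold changes of single arms and hairpins under the alternatives, 181 kept their direction, 19 turned, and 0 were called. miR-532-5p stayed between -0.37 and -0.23 and miR-500-3p between -0.62 and -0.36 in 18 alternatives each. miR-188-5p turned to -0.0782 with limma-voom, -0.0604 with library totals alone, -0.033 with upper-quartile scaling, -0.0375 with the choroid plexus covariate and -0.10 with knockout 3 and wild type 2 both left out, and ran from -0.15 to 0.11 when single libraries were left out. miR-501-3p turned to -0.0086, -0.0379 and -0.0205 in the first 3 of these and -0.13 in the last, with -0.0788 to 0.11 when single libraries were left out. The miR-501 hairpin turned to -0.0376 with library totals alone and -0.11 with both libraries left out, and ran from -0.021 to 0.15 over single omissions. miR-362-3p ran from -0.21 to 0.0489 when single libraries were left out. The TMM factors of the main fit split by genotype. They were 0.968, 0.9821, 0.9825 and 0.9769 in the knockouts and 1.007, 1.015 and 1.072 in the wild types. Fold changes from library totals alone are thus lower than those with TMM. The cause of the turns was not tested.

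The count of called miRNAs, 6 of 534, was 14 with DESeq2, 19 with no filter and 19 with knockout 3 and wild type 2 both left out, and ran from 3 to 14 over single omissions. For hairpins it was 4 of 394, with 7, 9 and 10 in those settings and 2 to 11 over single omissions. For the cluster's arms the count of calls was 0 in every setting run. The correlation of miR-532 and miR-501 turned to -0.16 with TMM-scaled CPM, and without knockout replicate 3 those of miR-532 and miR-188 (0.61) and of miR-188 and miR-362 (0.0781) turned positive. Centred on the genotype mean, a check chosen after seeing the data, the correlations of miR-532 with miR-362 (-0.20), miR-501 (-0.0149) and miR-500 (-0.30) turned negative. The log2 difference of the summed cluster ran from -0.21 to -0.05 over all settings. Depth limits the arms near 10 CPM, which had 7 to 17 reads in knockout replicate 3.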

Other observations

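A few values stand outside the comparisons above. Without miR-501-3p, the other 7 arms summed to 380.1, 385.5, 369.6 and 400.7 CPM in the knockouts, against 472.2, 471.1 and 540.7 CPM in the wild types, without overlap. Most of this sum was miR-532-5p, which averaged 326.7 of 384.0 CPM in the knockouts and 422.3 of 494.7 CPM in the wild types. The lack of overlap thus largely repeats that of miR-532-5p. The sum was chosen after its values were seen and is given as a description. The 6 arms other than miR-501-3p and miR-532-5p summed to 48.2, 57.7, 63.9 and 59.5 CPM in the knockouts, against 82.7, 68.3 and 66.4 CPM in the wild types. With TMM-scaled CPM, a check chosen after seeing the data, knockout replicate 3 stood at 65.0 and wild type replicate 3 at 61.9, so these groups overlapped, while the sum of the 7 arms stayed without overlap. The minor arm miR-188-3p stood at 1.95, 2.99, 5.24 and 2.32 CPM in the knockouts, from 18, 23, 5 and 9 reads, and at 1.48, 0.904 and 2.47 CPM in the wild types, from 4, 2 and 9 reads.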
